A study of Mus musculus with 35 samples.

Results

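The enzymes that build chondroitin and heparan sulfate were followed in tumor cells from primary pancreatic tumors, liver metastases and lung metastases. They are 10 named genes, found by symbol in a count table of 53465 genes and read in all 35 libraries. The genes were chosen by symbol, and the only measured value in the rule, total counts to choose between rows of 1 symbol, decided nothing, since each symbol had 1 row. The list itself was drawn up with earlier results of these counts known, so the label and organ values below describe the genes and are not independent evidence of a direction. All 10 genes passed the filter on low counts in each of the 6 comparisons of labels.

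Chondroitin and heparan sulfate are long sulfated sugar chains carried by proteoglycans in the pericellular matrix, where they bind growth factors and chemokines. Both chains start on the same linker, begun by a xylosyltransferase (*Xylt1* or *Xylt2*). The next sugar decides the chain. N-acetylgalactosamine, added by *Csgalnact1* or *Csgalnact2*, commits the linker to chondroitin sulfate, which *Chsy1* and *Chpf* extend and *Chst11* and *Chst15* sulfate. N-acetylglucosamine commits it to heparan sulfate, which *Ext1* polymerizes and *Ndst1* begins to modify. Pancreatic tumors are known for a matrix rich in these chains.

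The cells, called KC-shSmad4, came from pancreatic tumors of mice that carried Ptf1a-Cre, which is active in the pancreas, a Cre-activated rtTA3-IRES-mKate2 cassette at Rosa26 and, at Col1a1, a doxycycline (Dox)-inducible, GFP-linked *Smad4* shRNA, so rtTA3 and mKate2 were shared by every group. They also carried firefly luciferase and were grown in athymic nude (Foxn1 nu) females aged 6 to 8 weeks, which lack mature T cells, after injection into the pancreas, into the spleen followed by splenectomy (liver), or into the tail vein (lung). By the labels, Dox was withdrawn in the groups Smad4 on at week 4 (pancreas), 5 (liver) or 6 (lung), whereas the groups Smad4 off stayed on Dox. The mKate2+ cells were sorted 7 or 14 days after withdrawal. The number of libraries labelled off and on was 3 and 2 in the pancreas at day 7, 2 and 3 at day 14, 2 and 3 in the liver at day 7, 3 and 3 at day 14, 4 and 2 in the lung at day 7, and 4 and 4 at day 14. The line behind each library is not given in the sources used here. Mice were randomized to stay on Dox or come off it, so libraries of different label came from different animals. Within each group the titles number the mice, and P values measure the spread between these libraries.

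Libraries held 11885461 to 43571007 counts (median 19415320), and 3 counts corresponded to 0.0689 to 0.252 CPM, the count scaled to the library total, before the TMM factors that enter the CPM values below. *Smad4*, the target of the shRNA, ranged from 69.9 to 143 CPM over the 18 libraries labelled off and from 14.8 to 22.4 CPM over the 17 labelled on, which is against the label in every library labelled on. Groups are therefore named by their label, and each label difference below is labelled on against labelled off. Whether the labels were exchanged was not tested. If they were, the sign of every label difference would turn, and so would the Dox status given above for each group. Tumor epithelial markers (*Krt8*, *Krt18*, *Krt19* and 4 others) were present in every library. The liver library labelled off, day 7, replicate 2, labelled as the only paired-end run, stood apart: its summed fibroblast markers were 30515 CPM against 330 CPM in the other library of its group. Its median correlation was 0.949 with pancreas and 0.892 with liver libraries.

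The promoters of *Chsy1* and *Chst11*, members that differed between labels, are shown because SMAD proteins bind short CAGAC and GC-rich motifs. The letters are the 250 bases before the RefSeq start (GRCm38.p6, plus strand) at chr7:66109242-66109491 and chr10:82985247-82985496. Capitals mark CAGAC and GGCGC and the reverse complements of both, since both strands were searched.
Chsy1: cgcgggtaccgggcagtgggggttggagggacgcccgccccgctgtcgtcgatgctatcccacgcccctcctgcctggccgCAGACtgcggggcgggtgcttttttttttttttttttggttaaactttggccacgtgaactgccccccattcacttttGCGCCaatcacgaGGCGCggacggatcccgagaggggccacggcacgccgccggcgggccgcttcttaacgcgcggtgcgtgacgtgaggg
Chst11: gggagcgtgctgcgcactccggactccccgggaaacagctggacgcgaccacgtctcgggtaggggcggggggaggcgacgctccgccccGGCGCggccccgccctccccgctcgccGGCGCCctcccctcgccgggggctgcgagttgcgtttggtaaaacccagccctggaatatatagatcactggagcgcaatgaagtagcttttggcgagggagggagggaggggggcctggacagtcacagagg
The *Chsy1* window held 1 CAGAC match, 169 bases before the start, and 2 GGCGC matches. The *Chst11* window held 0 CAGAC and 3 GGCGC matches, 2 of which overlap on opposite strands. Among 32851 RefSeq windows of the same length, several of which can belong to 1 gene, 42.2% held CAGAC and 32.0% held GGCGC, so matches of this kind are common. Neither window held GTCTAGAC, the palindromic element, found in 0.167% of windows. In all, promoter windows of 6 members were searched (*Csgalnact2*, *Chsy1*, *Chpf*, *Chst11*, *Chst15* and *Xylt2*). Those of the remaining members, *Ndst1* among them, were not examined. These matches describe letters and not sites of binding.

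To compare genes with one another, CPM was divided by the transcript length in kilobases given in the count table. In pancreas libraries labelled off, the highest medians were those of *Chpf* (34.2 CPM per kb), *Chsy1* (33.6 CPM per kb), *Ext1* (29.6 CPM per kb) and *Ndst1* (25.0 CPM per kb). The ranges of *Chpf*, *Chsy1* and *Ext1* overlapped, so their levels did not differ beyond their spread, whereas *Ndst1* (23.3 to 26.4 CPM per kb) overlapped *Chpf* and lay below every library's *Chsy1* and *Ext1*. The length given for *Ndst1*, 6070 bases, is shorter than its 8279 exon bases in the reference annotation, whereas the lengths are equal for every other member. With the longer length *Ndst1* would be lower, so its level and rank here depend on the length used. *Chst11* (18.9 CPM per kb) followed, with a range of 5.99 to 25.0 CPM per kb that reached *Ndst1*. *Csgalnact2* (8.83 CPM per kb), *Csgalnact1* (8.18 CPM per kb), *Chst15* (6.22 CPM per kb) and *Xylt2* (6.14 CPM per kb) followed, each with a range overlapping that of its neighbor in this order. *Xylt1* was far lower, with a median of 0.102 CPM per kb, 0.0421 to 0.129, so nearly all xylosyltransferase mRNA was *Xylt2* in these libraries. In lung libraries labelled off, *Chpf* (28.4 CPM per kb) and *Ext1* (21.1 CPM per kb) led and *Chsy1* was at 13.2 CPM per kb. In liver libraries labelled off, *Ext1* (23.1 CPM per kb) and *Chpf* (21.5 CPM per kb) led and *Chsy1* was at 15.3 CPM per kb.

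**Figure D1:**
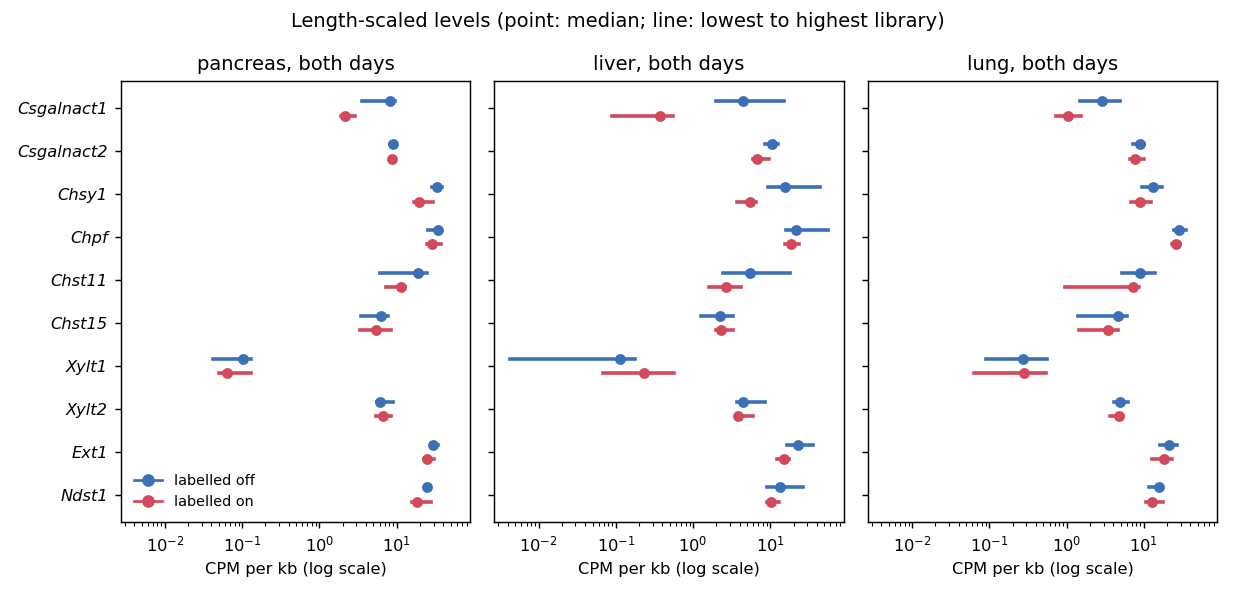
Length-scaled level of each gene (CPM per kb, log axis) in pancreas, liver and lung, both days together, in libraries labelled Smad4 off (blue) and on (red). Points are medians and lines run from the lowest to the highest library. The *Csgalnact1* median was lower labelled on than off in each organ, and *Xylt1* had the lowest median of the 10 genes in each organ.

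*Csgalnact1*, the initiating transferase (chr8:68356781-68735146, minus strand), was lower in every library labelled on than in every library labelled off of its own organ and day, in all 6 pairs. In single pairs 3.02% to 23.3% of all genes were lower without overlap, and the share lower in all 6 was not computed. The *Csgalnact1* difference was called in the primary tumors at both days, each fitted alone, and at neither in the single fit of all 12 groups (adjusted P = 0.239 at day 7 and 0.601 at day 14, with edgeR). Calls required more than a 2-fold change together with an adjusted P value below 0.05 (edgeR quasi-likelihood test, Benjamini-Hochberg over all genes tested). Unless another fit is named, a pair was called or not in the main fit, of that organ and day alone. In the pancreas at day 7, *Csgalnact1* was at 47.9, 42.1 and 41.7 CPM in libraries labelled off and 13.4 and 14.5 CPM in those labelled on. At day 14 it was at 24.6 and 18.2 CPM against 10.8, 9.65 and 11.0 CPM. The groups were tight and did not overlap, and the day 14 groups were closer together. The log2 fold change was -1.64 ± 0.13 (SE) at day 7 (adjusted P = 0.00556) and -1.003 ± 0.16 at day 14 (adjusted P = 0.00728). The day 14 fold change was barely over 2, and requiring 10 counts in every library put it just under. Other markers differed between the labels in these pairs. At day 7 fibroblast markers (8 genes) summed to 11419 to 17336 CPM labelled off and 23958 to 24560 CPM labelled on, and acinar markers (6 genes) to 1675 to 2644 CPM and 622 to 855 CPM. At day 14 tumor epithelial markers (7 genes) summed to 4374 to 4627 CPM labelled off and 5944 to 8265 CPM labelled on, with fibroblast markers overlapping. Their part in the label differences was not tested, and in sorted bulk cells fewer cells of a type and less RNA per cell cannot be told apart.

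In liver metastases labelled on, *Csgalnact1* had its lowest levels. At day 7 it was at 22.6 and 75.5 CPM in libraries labelled off and 2.32, 1.49 and 0.461 CPM in those labelled on, the last from 12 counts. At day 14 it was at 28.3, 10.2 and 9.99 CPM against 2.79, 2.37 and 1.50 CPM. Every library labelled on was under 3 CPM, and the spread lay mostly among the libraries labelled off. The log2 fold change was -5.15 ± 0.85 at day 7 (adjusted P = 0.0581) and -2.92 ± 0.54 at day 14 (adjusted P = 0.357), so neither was called in the main fits. Alternatives other than leaving out a library, DESeq2 and the single edgeR fit among them, gave adjusted P from 1.08e-08 to 0.2025 at day 7. At day 14 they gave 3.44e-05 to 0.366. The higher library labelled off at day 7 was the one that stood apart, with fibroblast markers at 30515 CPM, and the part of these in its *Csgalnact1* level was not tested. Without it, the day 7 value was -4.06 ± 0.74 (adjusted P = 0.0498), and over the leave-one-out fits the adjusted P ran from 0.00764 to 0.242. Tumor epithelial markers summed to 3426 to 12463 CPM off and 14346 to 16571 CPM on at day 7. Lung epithelial markers (7 genes) summed to 8.43 to 35.4 CPM off and 139 to 324 CPM on at day 7, and 78.5 to 119 CPM off and 224 to 385 CPM on at day 14. Of this lung sum, *Sftpd* alone was 34.6 of 35.4 CPM in day 7 off replicate 1 and 7.24 of 8.43 CPM in replicate 2. Of the 7 genes, 2 were at 0 throughout the day 7 off group and 1 throughout the day 7 on group. At day 14 these were 3 and 1. Hepatocyte markers (8 genes) also differed between the labels in the liver, at a summed 75.9 to 273 CPM off and 949 to 1051 CPM on at day 7, and 216 to 486 CPM off and 659 to 750 CPM on at day 14, with 0 of the 8 at 0 throughout a liver group. The part of these markers in the result was not tested. Much of that sum was *Apob*, at 63.5 to 970 CPM over all 35 libraries, whereas *Alb* was at 0 to 16.3 CPM.

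In lung metastases the groups also did not overlap. At day 7 *Csgalnact1* was at 13.8, 25.1, 7.65 and 8.93 CPM in libraries labelled off and 4.22 and 5.14 CPM in those labelled on. At day 14 it was at 15.2, 11.3, 25.1 and 23.6 CPM against 5.55, 7.44, 3.76 and 7.82 CPM. Libraries labelled on lay between those of liver and pancreas. The log2 fold change was -1.53 ± 0.53 at day 7 (adjusted P = 0.955) and -1.63 ± 0.33 at day 14 (adjusted P = 0.19), and neither was called.

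**Figure D2:**
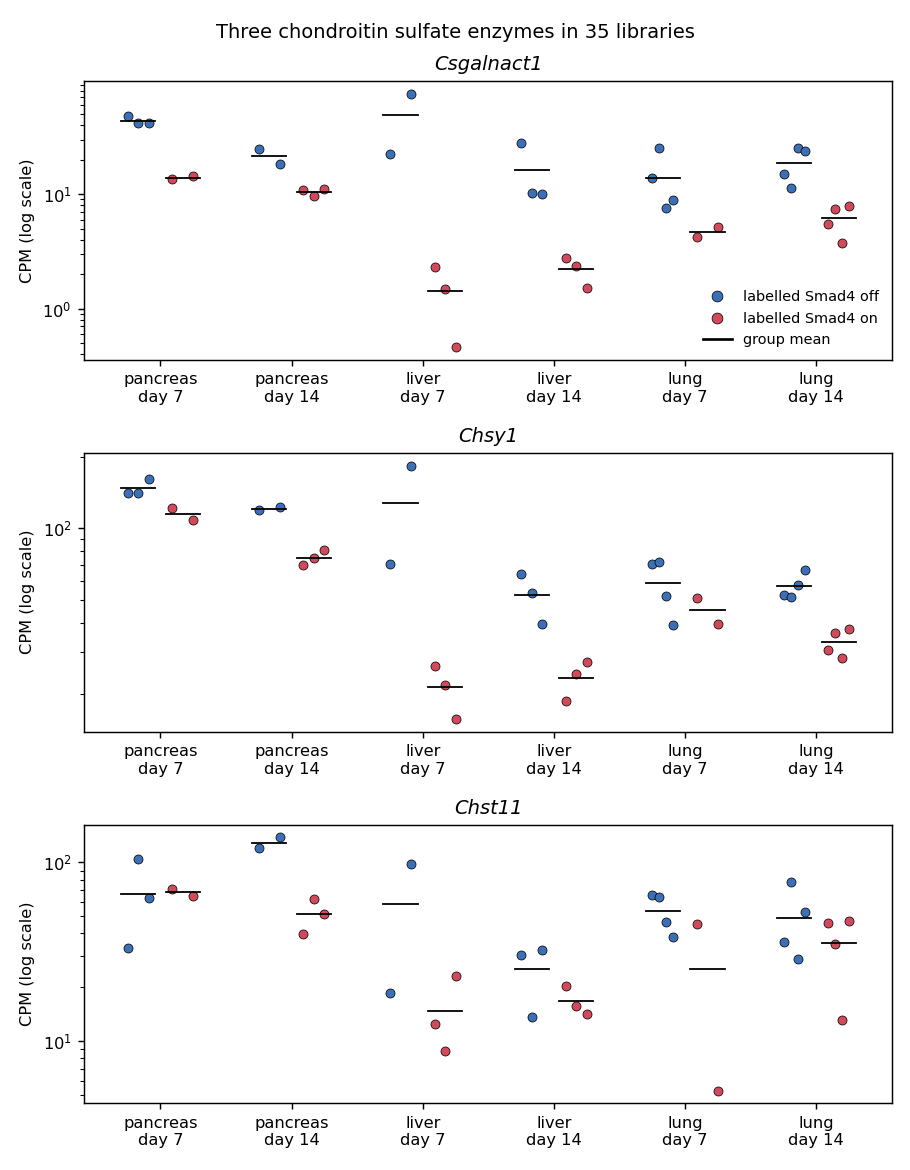
CPM (log axis) of *Csgalnact1*, *Chsy1* and *Chst11* in each of the 35 libraries, by organ and day. Blue points are libraries labelled Smad4 off, red points those labelled on, and bars are group means. Red lies below blue without overlap in all 6 pairs for *Csgalnact1* and in all but lung day 7 for *Chsy1*, whereas *Chst11* overlaps in every pair but pancreas day 14.

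*Csgalnact2*, which makes the same first transfer, was not called in any pair. It ranged from 39.7 to 69.1 CPM over the libraries labelled off and 32.5 to 54.2 CPM over those labelled on. Its largest label difference was in the liver at day 7, at 47.5 and 66.6 CPM against 32.5, 33.7 and 32.7 CPM, with a log2 fold change of -0.87 ± 0.19 (adjusted P = 0.0787). In the pancreas at day 14 it was -0.00 ± 0.11 (adjusted P = 0.998). In the pancreas at day 7 the mean ratio of *Csgalnact1* to *Csgalnact2*, per kilobase, was 0.964 ± 0.0925 (SD, n = 3) labelled off and 0.321 ± 0.0238 (n = 2) labelled on. In the liver at day 7 it was 0.859 ± 0.496 (n = 2) against 0.0461 ± 0.0306 (n = 3), and in the lung at day 14 it was 0.409 ± 0.158 (n = 4) against 0.160 ± 0.0591 (n = 4). Only in 2 libraries labelled off, 1 in the pancreas (1.07) and the liver library that stood apart (1.21), did *Csgalnact1* exceed *Csgalnact2*. The ratio was not tested.

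**Figure D3:**
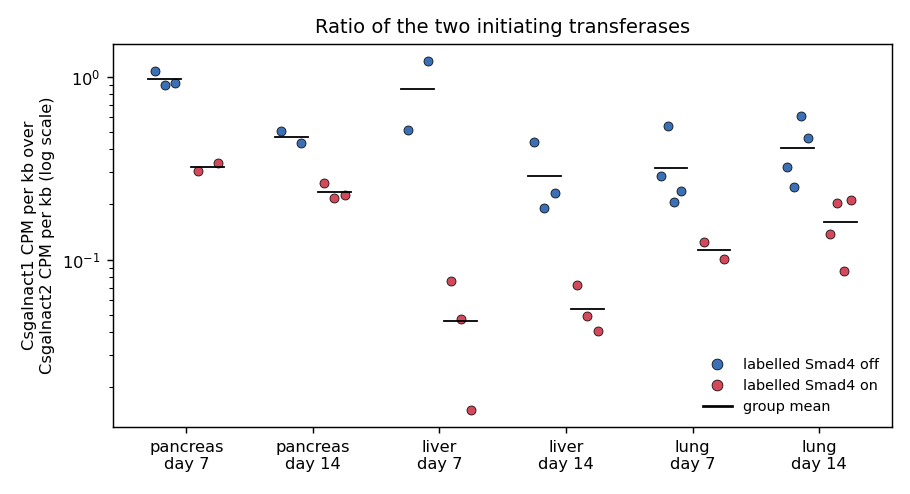
Ratio of *Csgalnact1* to *Csgalnact2* (each in CPM per kb, log axis) in each library by organ and day, labelled Smad4 off (blue) or on (red), with group means as bars. Ratios ranged from 0.192 to 1.21 labelled off and from 0.0151 to 0.338 labelled on, and within each organ and day the labels did not overlap.

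*Chsy1*, a chondroitin polymerase, was lower in libraries labelled on without overlap in 5 of the 6 pairs, and the share of all genes lower in as many pairs was not computed. In the pancreas at day 7 it was at 141, 140 and 162 CPM labelled off and 121 and 108 CPM labelled on, and at day 14 at 119 and 123 CPM against 69.6, 74.8 and 80.8 CPM. The day 14 groups were well separated, those at day 7 by less. The log2 fold change was -0.35 ± 0.11 at day 7 (adjusted P = 0.139) and -0.66 ± 0.09 at day 14 (adjusted P = 0.00376), which passed on the P value but was under 2-fold.

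In liver metastases *Chsy1* was at 70.5 and 184 CPM labelled off and 26.4, 21.9 and 15.7 CPM labelled on at day 7. At day 14 it was at 64.0, 53.3 and 39.3 CPM against 18.6, 24.3 and 27.3 CPM. Again no library labelled on reached the lowest library labelled off. The log2 fold change was -2.65 ± 0.46 at day 7 (adjusted P = 0.0625) and -1.20 ± 0.26 at day 14 (adjusted P = 0.357). Alternatives other than leaving out a library, DESeq2 and the single edgeR fit among them, gave adjusted P from 2.49e-06 to 0.218 at day 7. At day 14 they gave 0.00621 to 0.399. Without the library that stood apart, the day 7 value was -1.83 ± 0.31 (adjusted P = 0.0442, and 0.00366 to 0.242 over the leave-one-out fits). In lung metastases it was at 70.8, 72.0, 51.7 and 39.2 CPM labelled off and 50.8 and 39.3 CPM labelled on at day 7, which overlapped. At day 14 it was at 52.4, 51.4, 57.9 and 66.9 CPM against 30.7, 36.1, 28.5 and 37.4 CPM, which did not overlap. The log2 fold change was -0.35 ± 0.26 at day 7 (adjusted P = 0.998) and -0.79 ± 0.14 at day 14 (adjusted P = 0.145). With the mouse numbers as a block, the latter was -0.79 ± 0.12 (adjusted P = 0.0232), still under 2-fold. Whether these numbers mark pairs of libraries, which would not be from the same animal, could not be told. In the reference annotation 148 exon bases of *Chsy1* (3.54%) overlap *Gm26827* on the other strand, and the strand setting of the counting is not given in the sources used here.

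*Chpf*, the partner that supports chain polymerization, was at 61.6 to 215 CPM labelled off and 59.8 to 144 CPM labelled on. Its log2 fold changes ran from -1.15 ± 0.42 in the liver at day 7 (adjusted P = 0.159) to 0.16 ± 0.19 in the pancreas at day 7 (adjusted P = 0.648). The liver value was carried by the library that stood apart (215 CPM, against 78.0 CPM in the other) and was -0.28 ± 0.18 without it. *Chpf* was not called in any pair.

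*Chst11*, which sulfates the N-acetylgalactosamine of chondroitin, was called in 1 pair only. In the pancreas at day 14 it was at 120 and 138 CPM labelled off and 39.6, 62.5 and 51.1 CPM labelled on. The groups did not overlap, and the log2 fold change was -1.31 ± 0.19 (adjusted P = 0.00896), or -1.34 ± 0.65 (adjusted P = 0.562) in the single fit of all 12 groups. At day 7 in the same organ it was at 33.1, 104 and 63.3 CPM against 71.2 and 64.8 CPM, with a log2 fold change of 0.04 ± 0.46 (adjusted P = 0.969). The change between days was not tested. In the liver at day 7 it was at 18.7 and 98.3 CPM against 12.4, 8.83 and 23.2 CPM, which overlapped, and the log2 fold change of -2.06 ± 0.76 (adjusted P = 0.163) became -0.45 ± 0.53 without the library that stood apart. In the lung at day 7 one of the 2 libraries labelled on was at 45.2 CPM and the other at 5.26 CPM, the lowest of all 35. *Chst15*, which adds a further sulfate to chondroitin, showed no label difference that passed, with log2 fold changes from -0.41 ± 0.57 in the lung at day 7 to 0.35 ± 0.44 in the pancreas at day 7. In the annotation 1206 exon bases of *Chst15* (17.9%) overlap *Gm10584* on the other strand.

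*Xylt2*, the prevailing xylosyltransferase, differed between labels in opposite directions at the pancreas's 2 days. At day 7 it was at 22.4, 24.4 and 23.6 CPM labelled off and 33.3 and 26.1 CPM labelled on, a log2 fold change of 0.35 ± 0.14 that did not pass (adjusted P = 0.203). At day 14 it was at 35.5 and 35.8 CPM against 21.7, 23.7 and 26.9 CPM, a log2 fold change of -0.54 ± 0.12 (adjusted P = 0.0221), under 2-fold. The difference between the days was not tested. *Xylt1* was near the floor in many libraries, at 0.0413 to 5.46 CPM over all 35. In the liver at day 7 it was at 0.821 and 0.0413 CPM labelled off, the latter a single count, and 2.74, 1.72 and 1.61 CPM labelled on. The libraries labelled on were all higher, and the log2 fold change was 2.08 ± 1.09 (adjusted P = 0.294). Without the library that stood apart it was 1.20 ± 0.58 (adjusted P = 0.26), and without the other library labelled off, replicate 1, it was 5.46 ± 0.88 (adjusted P = 0.0159), which rests on the single count.

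*Ext1*, the heparan polymerase, and *Ndst1*, which starts heparan modification, were among the most abundant members and were called in no pair. *Ndst1* was lower in the pancreas at day 14, at 141 and 153 CPM against 95.7, 106 and 109 CPM, a log2 fold change of -0.48 ± 0.09 (adjusted P = 0.0145), under 2-fold. *Ext1* in the same pair was at 242 and 239 CPM against 179, 202 and 201 CPM, with a log2 fold change of -0.29 ± 0.09 (adjusted P = 0.0723). The labels did not overlap for either gene. In the liver at day 7 *Ext1* was at 187 and 285 CPM against 140, 120 and 108 CPM, with a log2 fold change of -1.02 ± 0.24 (adjusted P = 0.0842). *Ndst1* in that pair was at 55.2 and 162 CPM against 63.1, 54.9 and 77.9 CPM, and its log2 fold change of -0.81 ± 0.46 (adjusted P = 0.326) became 0.13 ± 0.23 without the library that stood apart.

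**Figure D4:**
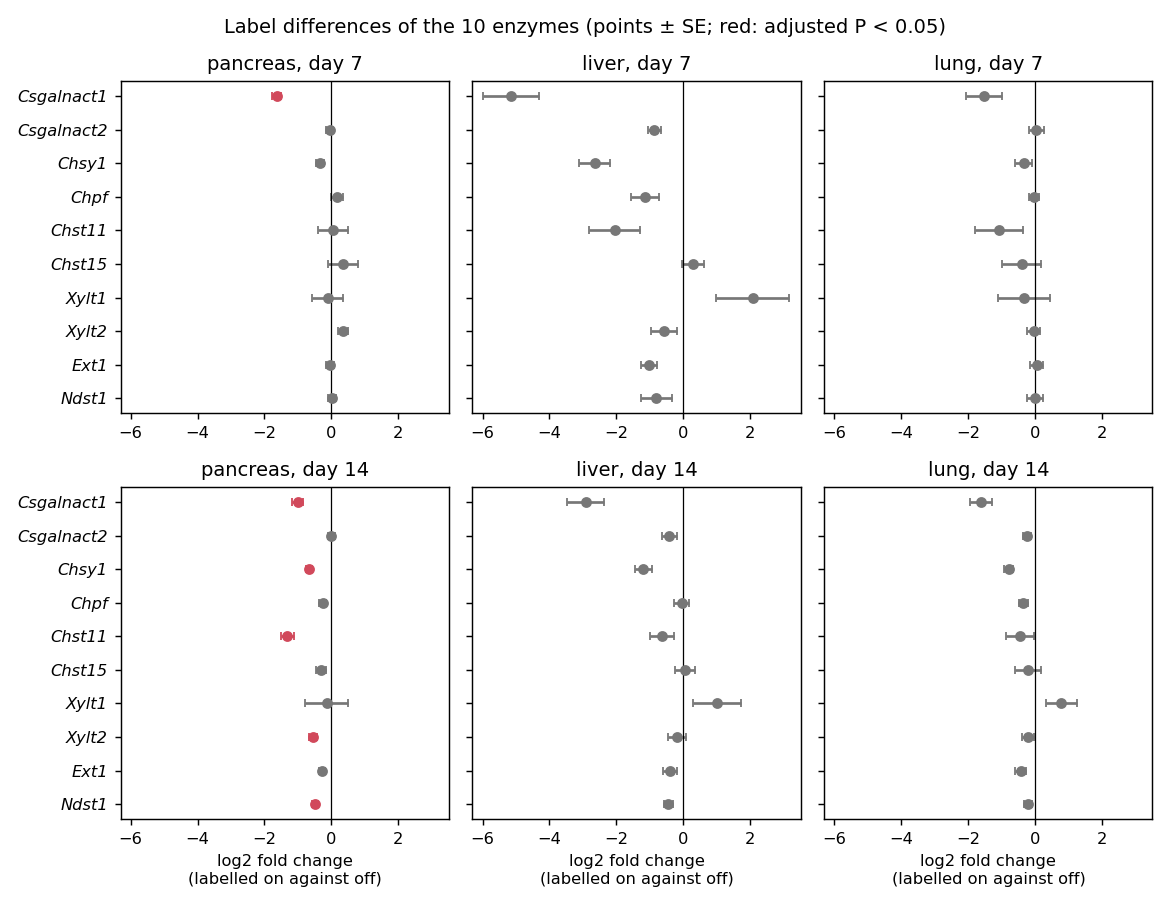
Log2 fold change, labelled on against off, of the 10 genes in each organ and day. Points are edgeR estimates, bars are ± 1 SE and red marks an adjusted P value under 0.05. Red points appear only in the pancreas, 1 at day 7 and 5 at day 14, while liver day 7 holds the largest estimates, down to -5.15, with the widest bars.

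Counted over the list, the pancreas at day 7 had 1 of 10 members called lower (*Csgalnact1*), where 0.374% of 14439 genes were, and 0 called higher, where 0.956% were. The call was lost without the library labelled on, replicate 1 (adjusted P up to 0.0516 over the leave-one-out fits). At day 14 the pancreas had 2 of 10 called lower (*Csgalnact1* and *Chst11*), where 1.26% of 14234 genes were, and 0 higher, where 3.39% were. On the adjusted P value alone 5 of 10 were lower, where 6.3% of genes were. The median log2 fold change was -0.40 over the members and 0.02 over all genes. Both calls were lost without the library labelled off, replicate 1, that of *Chst11* without off replicate 2, and that of *Csgalnact1* without on replicate 2, with adjusted P up to 0.0977 for *Csgalnact1* and 0.0877 for *Chst11*.

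Outside the pancreas 0 members were called in any pair by the main edgeR fits, of each pair alone. The single edgeR fit of all 12 groups called 4 in the liver at day 7 and 2 at day 14. With a covariate for libraries with counts of the mitochondrial gene *mt-Co3*, edgeR called 1 in the lung at day 14. At day 7 in the liver, 0.262% of genes were called lower and 0.181% higher, 6 members were lower at an unadjusted P under 0.05 (13.3% of genes were), and DESeq2 called 4. The count became 2 without the liver library that stood apart (*Csgalnact1* and *Chsy1*) and 8 without the other library labelled off, replicate 1, which leaves only the one that stood apart. At day 14 in the liver, 0% of genes were called, 3 members were lower at an unadjusted P under 0.05 (5.07% of genes) and DESeq2 called 2. In the lung at day 7, 0% of genes were called, 1 member was lower at an unadjusted P under 0.05 (2.81% of genes) and DESeq2 called 0. In the lung at day 14, 0.00678% of genes were called lower and 0.0203% higher, 4 members were lower at an unadjusted P under 0.05 (4.89% of genes) and DESeq2 called 1. Non-overlap in the lower direction held for 3 members in the pancreas at day 7 (21.7% of genes), 5 in the liver at day 7 (22.3%), 1 in the lung at day 7 (6.88%), 7 in the pancreas at day 14 (23.3%), 3 in the liver at day 14 (7.12%) and 2 in the lung at day 14 (3.02%). In the higher direction it held for *Xylt2* in the pancreas at day 7 (21.7%) and *Xylt1* in the liver at day 7 (23.7%).

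Over the mean of the 6 organ and day pairs, from a single fit of all 35 libraries, *Csgalnact1* was the member with the largest difference, with a log2 fold change of -2.30 ± 0.22 (adjusted P = 8.41e-08). *Chsy1* was at -0.99 ± 0.11 (adjusted P = 7.94e-07), just under 2-fold, and *Chst11* at -0.91 ± 0.26 (adjusted P = 0.0106). One of 10 members was called lower, where 2.55% of 17547 genes were, and 0 higher, where 3.44% were. On the adjusted P value alone 7 of 10 were lower, where 11.8% of genes were. The others of these were *Ext1* (-0.34 ± 0.08, adjusted P = 0.00266), *Csgalnact2* (-0.25 ± 0.07, adjusted P = 0.00697), *Ndst1* (-0.32 ± 0.10, adjusted P = 0.0237) and *Chpf* (-0.27 ± 0.10, adjusted P = 0.0428). *Chst15* (-0.04 ± 0.20), *Xylt2* (-0.19 ± 0.10) and *Xylt1* (0.56 ± 0.32) did not pass. Without the liver library that stood apart, *Chst11* (adjusted P = 0.067), *Ndst1* (0.156) and *Chpf* (0.269) no longer passed, and *Csgalnact1* was at -2.11 ± 0.21. *Csgalnact1* stayed called in all 35 leave-one-out fits. The count became 4 without liver day 7 labelled off replicate 1 (*Chsy1*, *Chst11* and *Xylt1* added) and 3 without lung day 7 labelled on replicate 1 (*Chsy1* and *Chst11* added). It became 2, with *Chsy1* added, without pancreas day 7 off replicate 2 or on replicate 1, pancreas day 14 off replicate 1 or 2 or on replicate 3, liver day 7 on replicate 1, liver day 14 off or on replicate 3, lung day 7 off replicate 3 or 4, or lung day 14 off replicate 3 or on replicate 4, and, with *Chst11* added, without liver day 7 on replicate 3.

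The study contrasted what *Smad4* restoration does in liver and lung metastases, so the label difference was compared between these organs. At day 7 the larger differences in the liver were not called for any member. The liver response minus the lung response was -3.55 ± 0.94 for *Csgalnact1* (adjusted P = 0.073) and -2.22 ± 0.52 for *Chsy1* (adjusted P = 0.0566) on the log2 scale. Of all genes 0.984% were called lower and 0.88% higher, 5 members were lower at an unadjusted P under 0.05 (9.37% of genes) and DESeq2 called 3. Without the liver library that stood apart the values were -2.49 ± 0.95 (adjusted P = 0.217) and -1.43 ± 0.44 (adjusted P = 0.144). The count became 5 without the other liver library labelled off, replicate 1 (*Csgalnact1*, *Chsy1*, *Chpf*, *Xylt1* and *Ext1*), and 1 without the lung library labelled on, replicate 1 (*Csgalnact2*). At day 14 the values were -1.27 ± 0.61 and -0.39 ± 0.27, 0% of genes and 0 members were called, 0 members had an unadjusted P under 0.05 (2.1% of genes did in the lower direction), and DESeq2 called 0.

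The organs were then compared within each label over both days, in the fit of all 12 groups. These comparisons share libraries, so they are given side by side. Fibroblast markers moved with the organ: *Col1a1*, *Dcn* and 6 others summed to 9097 to 24560 CPM in pancreas libraries and to 152 to 4246 CPM in liver and lung libraries other than the one that stood apart, and none of the 8 was at 0 throughout a group. Acinar markers (6 genes) summed to 622 to 2690 CPM in pancreas libraries and to 2.98 to 16.8 CPM in liver and lung libraries other than the same one. Their part in the organ differences was not tested.

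Labelled on, *Csgalnact1* was lower in liver than in primary tumors by a log2 difference of -2.75 ± 0.38 (adjusted P = 3.14e-06), at 0.461 to 2.79 CPM (median 1.91) against 9.65 to 14.5 CPM (median 11.0). *Chsy1* (-2.06 ± 0.19, adjusted P = 3.44e-08), *Chst11* (-1.91 ± 0.45, adjusted P = 0.00133) and *Chst15* (-1.24 ± 0.35, adjusted P = 0.0055) were also lower. *Xylt1* was higher (1.55 ± 0.58, adjusted P = 0.0364). Thus 4 of 10 were called lower and 1 higher, where 11.3% of genes were called in each direction, and 9 of 10 were lower on the adjusted P value alone, where 18.6% of genes were. *Csgalnact1*, *Chsy1* and *Chst11* were called whichever library was left out. *Xylt1* was not called without liver day 7 or day 14 replicate 1, pancreas day 7 replicate 1 or 2, or pancreas day 14 replicate 1 or 2, and *Chst15* was not without pancreas day 7 replicate 1, which left 3 members called. *Ndst1* was called as well without liver day 7 replicate 3, liver day 14 replicate 1, pancreas day 7 replicate 2 or pancreas day 14 replicate 1. In lung against pancreas *Chsy1* (-1.26 ± 0.20, adjusted P = 7.39e-05) and *Csgalnact1* (-1.17 ± 0.38, adjusted P = 0.0253) were lower and *Xylt1* (1.75 ± 0.60, adjusted P = 0.0324) higher, so 2 were called lower (7.39% of genes) and 1 higher (6.32%). *Chsy1* was called whichever library was left out. *Csgalnact1* was not called without lung day 7 replicate 1 or 2 or pancreas day 7 replicate 1 or 2, and *Xylt1* was not without lung day 7 replicate 1, lung day 14 replicate 2, pancreas day 7 replicate 1 or 2, or pancreas day 14 replicate 1 or 2, so the count was 1 without pancreas day 7 replicate 1. *Chst15* was called without pancreas day 7 replicate 2, and *Chst15* and *Chst11* without lung day 7 replicate 1. In liver against lung *Csgalnact1* was lower (-1.57 ± 0.37, adjusted P = 0.00341), the 1 member called lower (5.21% of genes), with 0 higher (5.72%). *Chsy1* was at -0.79 ± 0.19 (adjusted P = 0.00347), under 2-fold. Without lung day 7 labelled on replicate 2, the library with the lowest *Chst11*, that gene was called as well.

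Labelled off, *Csgalnact1* was at 9.99 to 75.5 CPM in liver (median 22.6) and 18.2 to 47.9 CPM in primary tumors (median 41.7), with a log2 difference of -0.12 ± 0.38 (adjusted P = 0.857), or -0.68 ± 0.41 (adjusted P = 0.253) without the liver library that stood apart. Whether the organ difference depends on the label was not tested for this pair of organs. In liver against pancreas *Chst15* was the 1 member called lower (-1.46 ± 0.37, adjusted P = 0.00866), where 3.97% of genes were, and 0 were higher, where 5.56% were. Without the liver library that stood apart 4 were called (*Chsy1*, *Chst11*, *Chst15* and *Ndst1*), without liver day 7 off replicate 1 there were 0, and without pancreas day 7 off replicate 1 there were 2 (*Chst11* and *Chst15*). In lung against pancreas *Chsy1* was the 1 called lower (-1.21 ± 0.18, adjusted P = 9.44e-06), where 7.32% of genes were, at 39.2 to 72.0 CPM (median 55.1) against 119 to 162 CPM (median 140), which did not overlap, and 0 were higher (11.7%). *Csgalnact1* was at -0.92 ± 0.33 (adjusted P = 0.0321) there and was called without lung day 7 off replicate 2, lung day 14 off replicate 3 (with *Xylt1* also) or lung day 14 off replicate 4. In liver against lung 0 members were called, where 3.13% of genes were lower and 2.15% higher, an unadjusted P under 0.05 was reached by 3 higher members (12.3% of genes) and 2 lower ones (11.7%), and DESeq2 called 1. The count was 2 without liver day 7 off replicate 1 (*Csgalnact1* and *Xylt1*) and 1 without lung day 7 off replicate 4 (*Chst15*).

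**Figure D5:**
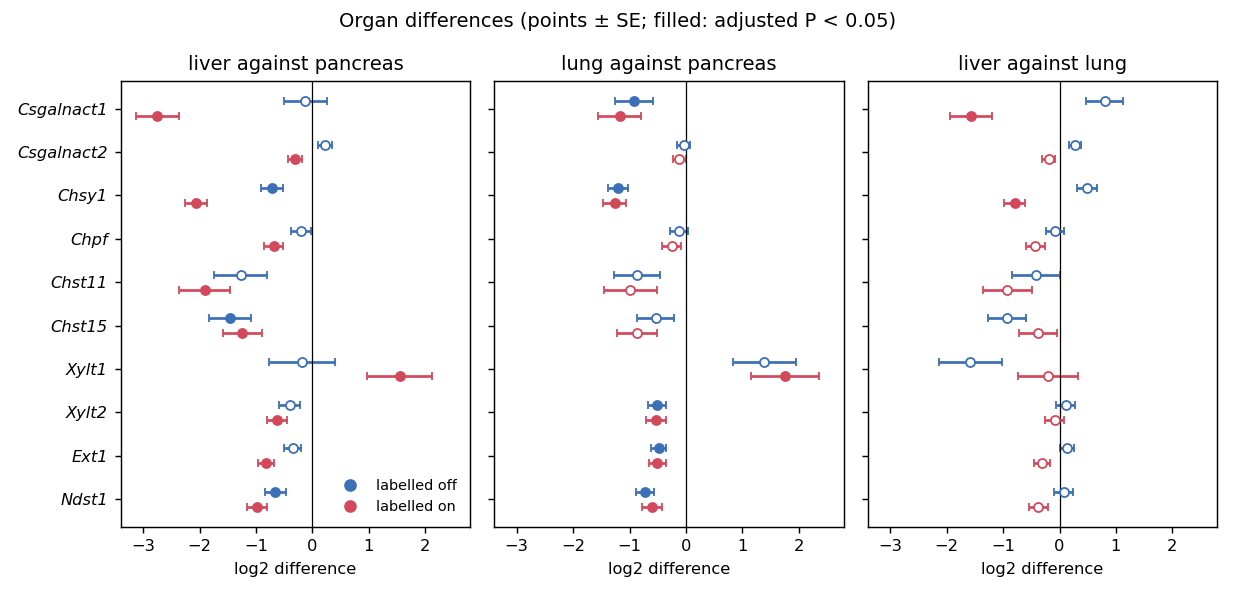
Log2 difference between organs for the 10 genes, in libraries labelled Smad4 off (blue) and on (red), both days together. Points are edgeR estimates, bars are ± 1 SE and filled points have an adjusted P value under 0.05. In liver against pancreas every red point is filled, with *Csgalnact1* at -2.75 and *Xylt1* at 1.55.

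The wider pathway was read from 9 lists with 89 genes besides the members, drawn up with earlier results known. Over the mean of the 6 pairs 78 of them were tested, and 6 were called lower, where 2.55% of all genes were, and 2 higher, where 3.44% were. Lower were *Ust*, a dermatan and chondroitin uronyl sulfotransferase (-1.50 ± 0.30, adjusted P = 0.000682), the heparan enzymes *Hs6st2* (-1.91 ± 0.36, adjusted P = 0.000372) and *Ndst3* (-1.96 ± 0.38, adjusted P = 0.000449), and the core proteins *Gpc1* (-1.19 ± 0.21, adjusted P = 0.000179), *Sdc2* (-1.14 ± 0.24, adjusted P = 0.00098) and *Acan* (-2.52 ± 0.69, adjusted P = 0.0083). Higher were *Extl1*, a heparan polymerase homolog (1.22 ± 0.28, adjusted P = 0.00207), and *Cd74*, which can carry chondroitin sulfate (1.21 ± 0.30, adjusted P = 0.00356). The median log2 fold change of the 78 was -0.07, against -0.29 for the members and 0.01 for all genes. Without the liver library that stood apart, an alternative chosen after seeing the data, *Ust* (-0.94 ± 0.24), *Gpc1* (-0.87 ± 0.18) and *Sdc2* (-0.77 ± 0.20) were under 2-fold, and the other 5 genes were still called. On the adjusted P value alone, which 11.8% of all genes passed in the lower and 12.8% in the higher direction, 5 of the 6 genes in the list of chondroitin chain-building enzymes were lower, but 4 of the 6 are members. Of 10 chondroitin sulfotransferases and epimerases, *Chst11* and *Chst15* among them, 5 were lower, as were 0 of 13 breakdown enzymes, of which 4 were higher.

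Within the primary tumors, *Tgfbr3*, a TGF-β co-receptor carrying heparan sulfate, was higher in libraries labelled on at day 7 (1.30 ± 0.09, adjusted P = 0.00366), the only one of 74 listed genes called, where 0.956% of all genes were called higher. At day 14, *Papss2*, which makes the sulfate donor, was higher (1.20 ± 0.14, adjusted P = 0.00197), and *Hs3st3b1* (-1.46 ± 0.25, adjusted P = 0.0165), *Ndst3* (-1.47 ± 0.38, adjusted P = 0.0406) and the proteoglycan *Spock2* (-1.21 ± 0.32, adjusted P = 0.0454) were lower, of 71 tested, where 3.39% of all genes were called higher and 1.26% lower. Among listed genes in the liver at day 7, *Cd74* was called higher (2.01 ± 0.22, adjusted P = 0.0477), where 0.181% of all genes were. *Cd74* is abundant in antigen-presenting leukocytes, and leukocyte markers (8 genes) summed to 15.7 CPM in both libraries labelled off and 41.9 to 52.9 CPM in those labelled on, whose part was not tested. *Chsy3*, a homolog of *Chsy1*, was the listed gene called for its label response in liver against lung at day 7 (-2.16 ± 0.27, adjusted P = 0.0372), where 0.984% of all genes were called lower, and without the liver library that stood apart it was at -2.12 ± 0.30 (adjusted P = 0.0606). *Chsy3* was at 31.0 to 34.7 CPM labelled off and 5.88 to 9.47 CPM labelled on in the liver, and at 42.0 to 53.1 CPM and 47.1 to 47.6 CPM in the lung.

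Core proteins of the chains were compared between organs too. In liver against pancreas labelled on, 8 of 12 heparan sulfate and 5 of 10 chondroitin sulfate core proteins were called lower and 0 higher, where 11.3% of all genes were called in each direction. Labelled off, 3 of 12 and 3 of 10 were called lower (3.97% of all genes) and *Acan* higher (4.97 ± 1.28, adjusted P = 0.00903). Labelled on, *Dcn*, itself one of those markers, was lower in liver than in primary tumors by a log2 difference of -4.36 ± 0.72 (adjusted P = 2.68e-05) and *Sdc2* by -3.44 ± 0.43 (adjusted P = 9.58e-07). Among the enzymes *Ust* was lower by -3.93 ± 0.54 (adjusted P = 2.91e-06) and *Chst14* by -2.53 ± 0.21 (adjusted P = 7.74e-09), set beside -2.75 for *Csgalnact1*.

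Across the 35 libraries, which differ in organ, label and depth for every gene alike, log2 CPM of *Chsy1* and *Ext1* had a Pearson correlation of 0.922 and that of *Csgalnact1* and *Chsy1* one of 0.892, the 2 highest of the 45 pairs of members. *Xylt1* and *Xylt2* had the lowest, -0.597. The genes most like *Csgalnact1* among 17546 were *Itga5* (0.955), *Fbln2* (0.940) and *Msn* (0.935), and *Smad4* was at 0.778. Those most like *Chst11* were *Vwa5a* (0.868), *Lmcd1* (0.862) and *Plscr3* (0.851). These correlations describe the libraries and carry no test.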

How the data were processed

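Tumor cells sorted as mKate2+ were profiled by poly(A) RNA sequencing (TruSeq Stranded mRNA, 75-base reads) in 35 libraries. The authors trimmed reads with Trimmomatic 0.36, aligned them with STAR 2.5.3a to the mouse GRCm38 genome and deposited whole-number counts per gene from featureCounts 1.6.3, with gene positions and transcript lengths. The strand setting and the treatment of multi-mapping reads are not given in the sources used here. The deposited gene lengths, in bases and neither counts nor another normalized unit, scaled CPM per kilobase.

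Groups came from the labels. Counts were tested with edgeR 4.0.16 (R 4.3.3; glmQLFit and glmQLFTest, robust; TMM scaling; filterByExpr with a count minimum of 10 and a total of 15), with Benjamini-Hochberg adjustment over all genes tested. Each organ and day was fitted alone for labels, liver and lung of 1 day together for their responses, and all 12 groups together for the mean of pairs and the organs. A call needed an adjusted P value under 0.05 and a fold change over 2. SE is the estimate over the root of its F statistic. The 10 members and all lists were chosen with earlier results of these data known. The members were all named, with up to 4 called genes per list and comparison for other genes (the text prints some of these for the organ comparisons) and the 3 genes most correlated with each called member. Promoters are RefSeq, GRCm38.p6, and exon overlaps are from GENCODE M21. Alternatives were DESeq2 1.42.0, its size factors, other filters, no fold threshold, other fits, a covariate for libraries with mt-Co3 counts, the mouse number as a block, and leaving out each library. The edgeR test was tried on simulated counts for the pancreas at day 14 and the mean of pairs only. These counts had the same fixed spread between libraries for every gene. That spread was smaller than the one estimated in the fit of all 12 groups and in each liver and lung pair, so the trial does not cover data as variable as those. A further allele that all groups share is not reported here.

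Mouse numbers are shared between labels. Deviations from the group means correlated between same-numbered libraries at 0.546 to 0.653 in the lung at day 14 (4 pairs). Of the 4 libraries labelled off there, 2 correlated best with their own number. Replicates 3 and 4 of both labels had mt-Co3 counts and replicates 1 and 2 had none, so pairing by number and this split cannot be told apart. Elsewhere the correlations ran from -0.354 to 0.479.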

Additional observations from a re-analysis of the deposited data

Results flagged for a closer look

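*Chst15* in the lung at day 7 labelled off was at 9.39 CPM in replicate 4 and at 35.2, 36.0 and 37.4 CPM in the other 3 libraries. The gap of replicate 4 to the nearest of the others was 0.924 of the group's range, above Dixon's limit. It was 1 of 33 gene and ratio groups of 4 libraries examined, and chance flags about 1 in 20 such groups. That library was also the only 1 of its group with mt-Co3 counts. Over all lung libraries, those with such counts had *Chst15* at 9.39 to 20.1 CPM and those without at 25.95 to 40.4 CPM. A term for these counts over all groups is given in the last section, and the flagged gap itself was not tested against it.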

How the results depend on the processing

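No called member changed direction under any alternative. Of the values of single members, 1035 of 1100 stayed called or uncalled under alternatives other than leaving out a library, and 1574 of 1650 when a library was left out. The count of members called, in the order main and alternative, moved as follows, and the cause was not tested. In the pancreas at day 7 it went from 1 to 0 with the replicate block or the single fit of 12 groups, and at day 14 from 2 to 1 with 10 counts in every library, 5 with no fold threshold and 0 with the single fit. In the liver at day 7 it went from 0 to 1 with 10 counts in every library or no filter and 4 with DESeq2 or the single fit, and at day 14 from 0 to 2 with DESeq2 or the single fit. In the lung at day 14 it went from 0 to 1 with the mt-Co3 covariate or DESeq2. The mean of 6 pairs went from 1 to 2 with no filter or the replicate block and 7 with no fold threshold. The liver response against that of lung at day 7 went from 0 to 1 with the mt-Co3 covariate or no filter, 3 with DESeq2 and 2 with the single fit. Labelled off, liver against pancreas went from 1 to 2 with DESeq2 and 3 with no fold threshold, lung against pancreas from 1 to 2 with the mt-Co3 covariate, DESeq2 or a fit of the groups compared and 5 with no fold threshold, and liver against lung from 0 to 1 with the mt-Co3 covariate or DESeq2. Labelled on, no fold threshold gave 10 for liver against pancreas (from 5), 6 for lung against pancreas (from 3) and 2 for liver against lung (from 1). Leaving out 1 library gave 0 to 1 in the pancreas at day 7, 0 to 8 in the liver at day 7, 0 to 2 in the pancreas at day 14, 1 to 4 for the mean of pairs, 0 to 5 for liver against lung responses at day 7, 0 to 4, 1 to 3 and 0 to 2 for liver against pancreas, lung against pancreas and liver against lung labelled off, and 3 to 6, 1 to 3 and 1 to 2 labelled on. In such fits a lone library was taken to vary like the other group. The mt-Co3 covariate could not be fitted in either pancreas pair. Same-numbered libraries correlated from -0.354 to 0.479 outside the lung at day 14, and in the lung at day 14 the replicate block changed no fold call. At the lowest depth a gene under 0.252 CPM (before TMM factors) had under 3 counts, which limits *Xylt1*.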

Other observations

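Of the 35 libraries, 10 had counts of the mitochondrial gene *mt-Co3*: 0 of 10 in the pancreas, 4 of 11 in the liver and 6 of 14 in the lung. What sets them apart is not given in the sources used here. *Chst15* in lung libraries was at 9.39 to 20.1 CPM (median 13.4) in the 6 with these counts and at 25.9 to 40.4 CPM (median 33.2) in the 8 without, which did not overlap. *Xylt2* in liver libraries was at 21.1 to 33.9 CPM (median 23.8) in the 4 with them and at 14.4 to 17.7 CPM (median 14.9) in the 7 without. As a term in the edgeR fit of 12 groups, chosen after seeing the data, libraries with *mt-Co3* counts differed in *Xylt1* by a log2 value of -1.33 ± 0.29 (adjusted P = 0.000606), in *Chst15* by -0.65 ± 0.22 (adjusted P = 0.0192) and in *Xylt2* by 0.38 ± 0.10 (adjusted P = 0.00266), of which *Xylt1* alone also passed the 2-fold threshold, as did 10.4% of 17547 genes. *Csgalnact1* (-0.12 ± 0.28, adjusted P = 0.765) and *Chsy1* (-0.05 ± 0.14, adjusted P = 0.817) did not.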
